A study of Homo sapiens with 19 samples.

Results

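ERRα binding was mapped genome-wide in HER2-positive breast cancer cells. The regions described here had an ERRα peak called with heregulin (HRG) and not with vehicle, in each of SKBr3 and BT-474 cells. A region was taken from the SKBr3 HRG peak list when its peak overlapped a BT-474 HRG peak by at least 1 bp, when that SKBr3 peak overlapped no SKBr3 vehicle peak, and when that BT-474 peak overlapped no BT-474 vehicle peak. Of 37195 SKBr3 HRG peaks, 1230 met this rule (3.31%, 95% Wilson interval 3.13–3.49), and they are called shared HRG-gained sites. They met 1216 BT-474 HRG peaks, because some peaks of one line covered more than one of the other. Chromatin immunoprecipitation followed by sequencing (ChIP-seq) gave 8 peak lists from 19 libraries. SKBr3 and BT-474 cells were starved of serum for 24 h and then given 100 μM EGF or 100 μM HRG (the unit as labelled) for 90 min, or vehicle (PBS). Untreated parental SKBr3 cells (pSKBr3) and their lapatinib-resistant derivative kept in 2 μM lapatinib (LRSKBr3) gave one list each. No serum starvation is stated for either. Each SKBr3, pSKBr3 and LRSKBr3 list was called on 2 pooled ChIP libraries with an input library, and each BT-474 list on a single ChIP library, all against the vehicle input. Since no list had a replicate list beside it, the lists used here allowed no test between conditions, and the intervals below cover counting error over sites only.

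ERRα (ESRRA) is an orphan nuclear receptor that, with its PGC-1 coactivators, controls genes of mitochondrial energy metabolism. HRG, also called neuregulin, binds ERBB3 and ERBB4 and drives their pairing with ERBB2 (HER2), whereas EGF binds EGFR, which also pairs with ERBB2. Both routes activate RAS-MAPK and PI3K-AKT signalling, and the FOS and JUN proteins that MAPK signalling induces bind DNA as the dimer AP-1.

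The sequences shown first are those of shared HRG-gained sites that held, within 100 bp of the centre of the SKBr3 peak, both the AP-1 word TGACTCA and the response element of ERRα (ERRE) as the word TCAAGGTCA. Both words were sought on both strands, on which they also read TGAGTCA and TGACCTTGA. These windows of 201 bases show the 2 elements that the site counts below turn on, and the next set shows how the AP-1 word lay beside listed genes. Capitals mark the words, and all are plus-strand sequence of GRCh37 (hg19). The windows lay in introns of UPP2, a uridine phosphorylase, MYLK, the myosin light chain kinase, and NEB, which encodes the muscle protein nebulin.
UPP2, chr2:158755183-158755383: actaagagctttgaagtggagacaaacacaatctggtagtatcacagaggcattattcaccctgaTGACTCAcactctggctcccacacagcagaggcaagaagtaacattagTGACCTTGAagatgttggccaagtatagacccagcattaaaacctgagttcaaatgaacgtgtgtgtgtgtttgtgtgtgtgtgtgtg
MYLK, chr3:123406223-123406423: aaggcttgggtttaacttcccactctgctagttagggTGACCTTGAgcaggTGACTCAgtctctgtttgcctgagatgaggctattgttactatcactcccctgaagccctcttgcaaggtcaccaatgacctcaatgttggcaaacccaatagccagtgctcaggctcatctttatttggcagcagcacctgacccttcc
NEB, chr2:152528414-152528614: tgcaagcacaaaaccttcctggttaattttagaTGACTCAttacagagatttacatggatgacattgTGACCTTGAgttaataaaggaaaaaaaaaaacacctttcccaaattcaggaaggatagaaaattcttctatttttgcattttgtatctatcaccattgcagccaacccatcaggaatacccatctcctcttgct

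In these windows, 41, 5 and 27 bases lay between the AP-1 word and the ERRE, in the order printed. Over the 10 shared sites with both words the median was 38 bases, and 7 had 50 bases or fewer between them. Others had DYRK1A, CLK4, PAX7, GFRA2 and MERTK as their nearest genes, and at the GFRA2 site the 2 words shared 3 bases. The first site, in UPP2, had a peak score of 563.44 in SKBr3 HRG cells, 228.02 in BT-474 HRG cells and 575.17 in SKBr3 EGF cells, and no peak in the other lists. The score is the caller's P value taken as −10 log10, so the lowest listed score of 50 stands for a P of 1e-05. The NEB site scored 160.71 and 143.32 with HRG in SKBr3 and BT-474, and 539.55 with EGF in SKBr3. Each of the 10 sites had a peak in SKBr3 EGF cells, and 1 of them, near DYRK1A, also had one in BT-474 EGF cells and in LRSKBr3 cells. None had a peak in pSKBr3 cells.

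The rule used the calls of 4 lists, and those calls are given as a description. HRG peaks without a vehicle peak made up 51.2% of the SKBr3 HRG list (19047 peaks) and 36.3% of the 41271 peaks of the BT-474 HRG list (14969). The shared sites were 6.46% (6.12–6.82) of the SKBr3-gained peaks, and the BT-474 peaks that they met were 8.12% (7.70–8.57) of the BT-474-gained peaks. The other classes of SKBr3 HRG peaks below served for comparison. Those without an SKBr3 vehicle peak and without any BT-474 HRG peak numbered 15396 and are called peaks gained in SKBr3 alone. Those without an SKBr3 vehicle peak whose BT-474 HRG peak was already there on vehicle numbered 2421 and are called peaks present on vehicle in BT-474. Peaks found with vehicle and with HRG in both lines numbered 9969 and are called stable peaks. The promoter of TFF1, an oestrogen-responsive gene whose promoter also binds ERRα, fell into the second of these classes. Its peak scored 247.28 in SKBr3 HRG cells, but 1041.09 on vehicle and 1947.67 with HRG in BT-474, so it was not a shared gained site.

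The shared sites were of low to middle rank in both HRG lists. Their median score was 115 in SKBr3 (range 50.2 to 3100) and 87.6 in BT-474 (50.03 to 3100), which stood at the 41.4th and 32.7th percentile of the 2 lists, where 100 is the highest score. In the upper quartile of the SKBr3 list were 160 sites (13.0%), in that of the BT-474 list 54 (4.39%), and in both 11. At or below the 25th percentile of both lists were 161 sites. The scores of a site in the 2 lines were hardly related, with a Spearman rho of 0.0983 across the 1230 sites, which shared libraries within each line and were not independent. Scores under 60, close to the calling limit, were held by 155 sites in SKBr3 (12.6%) and by 250 in BT-474 (20.3%). Low scores were a feature of gained peaks in general, since the median percentile was 31.7 for peaks gained in SKBr3 alone against 76.6 for stable peaks, and 25.04 for all BT-474 HRG peaks without a vehicle peak against 66.7 for those with one.

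**Figure D1:**
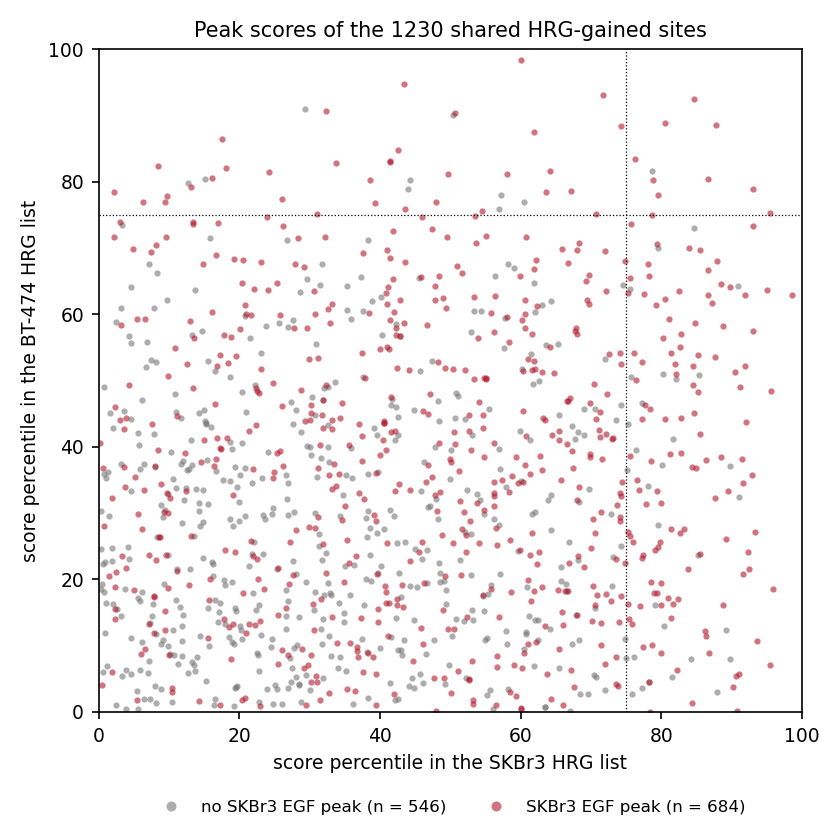
Each point is 1 of the 1230 shared HRG-gained sites, placed by its score percentile in the SKBr3 HRG list (x axis) and in the BT-474 HRG list (y axis), and coloured by whether an SKBr3 EGF peak overlapped it (684 sites) or not (546 sites). Dotted lines mark the 75th percentile of each list, and 11 sites lie above both.

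Just inside the rule, a site near DHCR7 (chr11:71141721-71142773, score 50.67) lay 38 bp from an SKBr3 vehicle peak, and a site near OTUD7B (chr1:149981484-149983420, score 301.68) met a BT-474 HRG peak that lay 5 bp from a BT-474 vehicle peak. Just outside it, a peak near H1-3 (chr6:26233102-26234602, score 92.86) was kept out by 13 bp of overlap with an SKBr3 vehicle peak. Such edge cases were few. A vehicle peak lay within 1 kb at 63 sites in SKBr3 and at 61 in BT-474, and the median gap to the nearest was 20095 bp and 17791.5 bp. The 2 HRG peaks of a site overlapped by a median of 1131.5 bp, 15 sites had an overlap under 100 bp, and at 712 sites the peak centres were within 250 bp of each other. At 18 sites (1.46%) the SKBr3 peak itself touched a BT-474 vehicle peak that the BT-474 HRG peak did not.

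The 10 strongest shared sites, ranked by the lower of their percentiles in the 2 HRG lists, included sites in ALK, IL1RAP and EGLN3 and intergenic sites whose nearest genes were MYCBPAP, ID4, ABLIM3, LRLE1, SLC45A1 and GNA13. First was a site 4734 bp from the start of MYCBPAP (chr17:48579915-48582216), with scores of 824.24 in SKBr3 and 927.47 in BT-474. It also had peaks with EGF in SKBr3 (377.73) and in BT-474 (69.59) and in LRSKBr3 cells (128.79). In the SKBr3 vehicle list, peaks flanked the site without touching it. The BT-474 HRG peak was broad, from −6.98 to 3.81 kb around the centre of the SKBr3 peak. It spanned the place of the nearest SKBr3 vehicle peak on each side, so its score is not that of the gained site alone. The second site (chr6:19409296-19411455) lay 427225 bp from the nearest start, that of ID4, and scored 652.42 in SKBr3 and 1394.64 in BT-474, and with EGF 614.58 in SKBr3 and 103.28 in BT-474. In an intron of ALK, a receptor tyrosine kinase (chr2:29970564-29972720), the scores were 501.28 and 945.2 with HRG and 1241.27 with EGF in SKBr3. The site 6063 bp from the start of ABLIM3, an actin-binding LIM protein (chr5:148513191-148516774), had 753.1 and 505.26 with HRG and the highest EGF score of the 10, 1824 in SKBr3. Scores in the lists of one line depend on its libraries and input, so these values show presence and rank, not a ratio of binding.

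At IL1RAP, the accessory chain of the interleukin 1 receptor, an intronic site (chr3:190302722-190305117) had 1454.91 in SKBr3, 461.46 in BT-474, 182.87 with EGF in SKBr3 and 394.47 in LRSKBr3 cells. In an intron of EGLN3, a prolyl hydroxylase that marks the hypoxia-inducible factor for breakdown (chr14:34843855-34845275), the scores were 392.03 and 615.58, with 507.19 for EGF in SKBr3. At 63446 bp from the start of GNA13, an α subunit of heterotrimeric G proteins (chr17:62987515-62989377), they were 470.59 and 438.65. None of the 10 had a pSKBr3 peak, and 9 had an SKBr3 EGF peak. The exception was the site 119911 bp from the start of SLC45A1, a sugar transporter (chr1:8257436-8259089), with scores of 448.01 and 543.98 and no peak in any of the other 4 lists. Only the LRLE1 site among the 10 had an AP-1 word at its centre, and none had the ERRE.

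**Figure D2:**
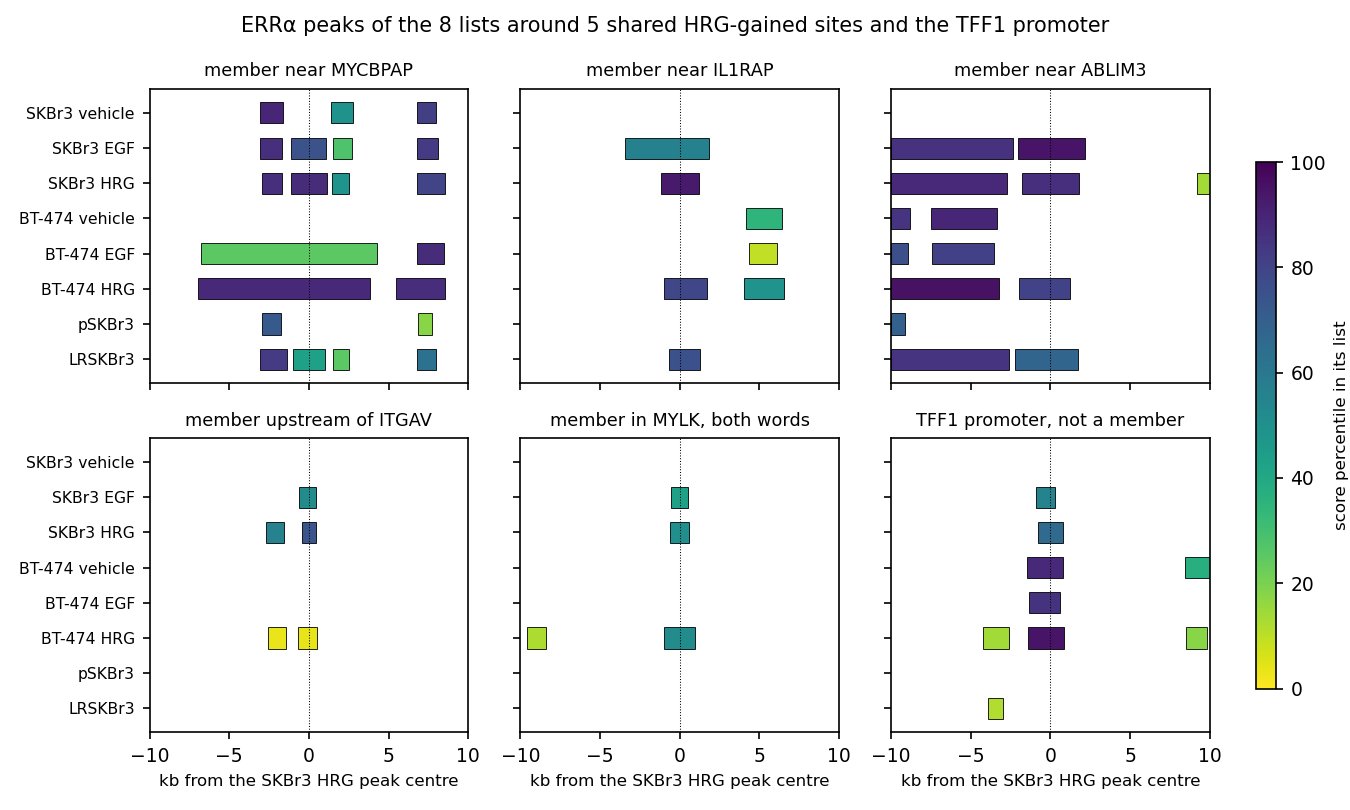
Peaks of the 8 lists (rows) within 10 kb of the centre of 5 shared HRG-gained sites and of the TFF1 promoter, which was not one. The x axis is the distance in kb, each bar is a called peak at its called width, and colour is its score percentile within its list. At each of the 5 shared sites the SKBr3 and BT-474 HRG rows have a peak at the centre. The vehicle row of the same line has none touching that peak, while at TFF1 the BT-474 vehicle row has one.

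The 4 lists that the rule did not use show what else was bound at the shared sites. With EGF in SKBr3, 684 sites had a peak (55.6%, 52.8–58.4), close to the 57.9% of the whole SKBr3 HRG list. The list is a mixture, and the share was 21.2% at peaks gained in SKBr3 alone, 49.8% at peaks present on vehicle in BT-474 and 95.4% at stable peaks. The shared sites thus stood 34.4 points (31.5–37.2, Newcombe interval) above the peaks gained in SKBr3 alone, and 5.80 points (2.37–9.19) above the peaks present on vehicle in BT-474. Higher scores went with more EGF peaks, and the shares were therefore compared within quartiles of the SKBr3 HRG score. From the lowest to the highest quartile of the list they were 40.7, 52.3, 63.9 and 80.6% at shared sites and 11.5, 17.8, 33.5 and 62.5% at peaks gained in SKBr3 alone. In each quartile the shared sites were higher, by 18.2 points (10.7–24.4) at the least, in the highest quartile. Against peaks present on vehicle in BT-474 the interval excluded 0 in the second quartile, at 9.59 points (3.40–15.7), and included it in the other 3, where the differences were 3.62, 6.15 and 3.22 points.

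In BT-474, EGF peaks were found at few shared sites. They overlapped 147 (12.0%), whereas 29% of the SKBr3 HRG list and 83.3% of stable peaks had one. These peaks were weak, since 3.01% of the shared sites had a BT-474 EGF peak with a score of at least 100, and 6.83% had one with its centre within 250 bp. Of these 147 sites, 96 (65.3%, 57.3–72.5) also had an SKBr3 EGF peak, so that 7.80% of the shared sites (6.43–9.44) were bound after each growth factor in both lines. EGF peaks of both lines lay at 49 of 15396 peaks gained in SKBr3 alone, 853 of 2421 present on vehicle in BT-474 and 7989 of 9969 stable peaks. A BT-474 EGF peak lay at 1.30% of peaks gained in SKBr3 alone, a class defined by having no BT-474 HRG peak. A better comparison is therefore within the BT-474 HRG list. There, 11.4% (9.76–13.3) of the BT-474 peaks that shared sites met had a BT-474 EGF peak, against 12.5% (11.9–13.1) of peaks gained in BT-474 with no SKBr3 HRG peak. These intervals overlapped, and both lay below the 19.7% (17.7–21.9) of BT-474-gained peaks where SKBr3 had a vehicle peak. The BT-474 EGF list was also the shorter, with 26832 peaks against 32567 for EGF in SKBr3.

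In the lists from cells not given EGF or HRG, 207 shared sites had a peak in parental pSKBr3 cells (16.8%, against 45.6% of the SKBr3 HRG list) and 534 in lapatinib-resistant LRSKBr3 cells (43.4%, against 66.9%). Over all scores, peaks gained in SKBr3 alone had 18.5% and 40.4%. For pSKBr3 the difference was −1.66 points (−3.74 to 0.613) and for LRSKBr3 3.04 points (0.187–5.93). Both differences moved with peak score. For pSKBr3 they were −0.666 points (−3.22 to 2.71) in the lowest quartile of the SKBr3 HRG score, −11.03 points (−15.3 to −6.12) in the third and −15.8 points (−23.4 to −7.54) in the highest. For LRSKBr3 the difference turned, from 5.33 points (0.642–10.4) in the lowest quartile to −11.3 points (−19.3 to −3.79) in the highest. It was positive at promoters (12.1 points, 3.66–18.5) and away from them (5.01 points, 2.06–8.02), and in each tertile of GC content. Peaks present on vehicle in BT-474 had an LRSKBr3 peak more often, at 58.9%. Sites bound in LRSKBr3 but not in pSKBr3 numbered 356 (28.9%), those in both 178 (14.5%) and those in pSKBr3 only 29. Where pSKBr3 had no peak, an LRSKBr3 peak lay at 34.8% of shared sites (31.9–37.8) and 29.8% of peaks gained in SKBr3 alone. It lay at 46.3% of those present on vehicle in BT-474 and at 81.3% of stable peaks. The LRSKBr3 list was longer than the pSKBr3 list (39777 and 22539 peaks), and the part of list length in the larger number of LRSKBr3 peaks was not tested.

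**Figure D3:**
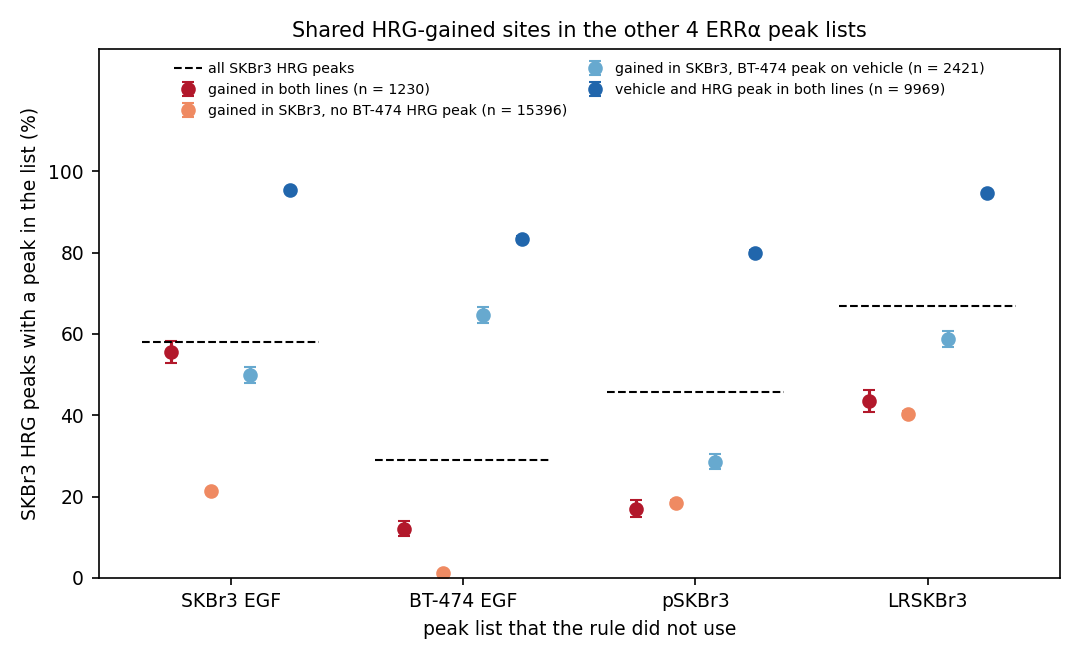
Percent of SKBr3 HRG peaks (y axis) that overlap a peak in each of the 4 lists outside the rule (x axis), for shared HRG-gained sites and for the 3 comparison classes. Bars are 95% Wilson intervals. For SKBr3 EGF the shared sites (55.6%) lie far above peaks gained in SKBr3 alone (21.2%) and nearer to those present on vehicle in BT-474 (49.8%). For pSKBr3 (16.8 and 18.5%) and LRSKBr3 (43.4 and 40.4%) the shares of shared sites and of peaks gained in SKBr3 alone differ by few points over all scores. They differ more among high-scoring peaks.

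Combining the 4 lists, 979 shared sites (79.6%) had a peak in at least one and 251 (20.4%) in none. Combinations of all 4 lists were counted at shared sites only. Whether these shares differ from those of other SKBr3 HRG peaks was not tested. The commonest pattern was a peak with EGF in SKBr3 and in no other list, at 344 sites (28.0%). A peak in each of the 4 lists was found at 12 sites. The strongest of these, 44193 bp from the start of CRB1 (chr1:197454286-197456700), scored 271.65 and 292.23 with HRG in SKBr3 and BT-474, 247.33 and 52.72 with EGF, 87.58 in pSKBr3 and 174.39 in LRSKBr3 cells. Next were sites near RGS16, a regulator that shortens G protein signalling, and TMEM275. Among the 251 sites with none, the strongest after that of SLC45A1 lay 59424 bp from the start of AGPAT5, an acyltransferase of phospholipid synthesis, with scores of 379.07 and 230.12. The next, with 235.59 and 214.92, had DUSP4 as its nearest gene, but 355392 bp away.

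The AP-1 word was more frequent at the shared sites than in any comparison class. It lay within 100 bp of the centre at 243 sites (19.8%, 17.6–22.1), and 26 of these held it more than once. The share was 9.76% over the SKBr3 HRG list, 10.9% at peaks gained in SKBr3 alone, 13.1% at peaks present on vehicle in BT-474 and 7.53% at stable peaks. In equally wide windows centred 2 kb away on either side of the shared sites it was 3.82%. The shared sites exceeded the peaks gained in SKBr3 alone by 8.89 points (6.70–11.3), those present on vehicle in BT-474 by 6.70 points (4.16–9.35) and the stable peaks by 12.2 points (10.0–14.6). The word gathered at the centre, with 10.5% of the sites holding it in each of the 100 bp bins next to the centre and between 1.46 and 2.11% in the bins 900 to 1000 bp away.

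From the BT-474 side, too, the peaks met by shared sites had the highest share. Around the centre of the BT-474 HRG peak, 17.6% (15.6–19.8) of the peaks met by shared sites held the AP-1 word. Peaks gained in BT-474 without an SKBr3 HRG peak held it in 7.13% (6.69–7.60), peaks gained in BT-474 where SKBr3 had a vehicle peak in 13.3% (11.7–15.2), and stable peaks in 7.47% (6.97–7.998). Base composition differed too, with a mean GC content of 43.2% at the BT-474 peaks met by shared sites and 35.9% at those gained in BT-474 without an SKBr3 HRG peak, and its part in the difference was not tested on this side.

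The ERRE was more frequent at shared sites than at peaks gained in SKBr3 alone and less frequent than at stable peaks. It lay at 61 of them (4.96%, 3.88–6.32), against 5.57% of the SKBr3 HRG list, 3.37% of peaks gained in SKBr3 alone, 6.57% of peaks present on vehicle in BT-474 and 8.29% of stable peaks. The difference from peaks gained in SKBr3 alone was 1.59 points (0.469–2.98), and from stable peaks −3.33 points (−4.54 to −1.87). The excess over peaks gained in SKBr3 alone was seen in the lowest tertile of GC content, at 6.31 against 3.23%, and not in the middle (4.60 against 4.81%) or the highest (1.91 against 2.26%). The share in the centre windows stood far above the 0.163% in the flanking windows of the same sites. The shorter word AAGGTCA, the core of the element, was found at 23.1% of the shared sites, 16.2% of peaks gained in SKBr3 alone, 23.8% of peaks present on vehicle in BT-474 and 27.2% of stable peaks, with 3.09% in the flanks. Neither the AP-1 word nor the full ERRE lay at 936 sites (76.1%), and a word searched letter by letter misses degenerate copies of an element. Joint presence of the AP-1 word and the ERRE was rare at 0.813% of the shared sites (0.442–1.49), against 0.383% (0.297–0.494) of peaks gained in SKBr3 alone, 0.991% (0.667–1.47) of peaks present on vehicle in BT-474, and 0.552% (0.424–0.717) of stable peaks. The difference was 0.430 points (0.0428–1.11) from peaks gained in SKBr3 alone, and its interval included 0 for peaks present on vehicle in BT-474 (−0.785 to 0.572) and for stable peaks (−0.145 to 0.950).

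**Figure D4:**
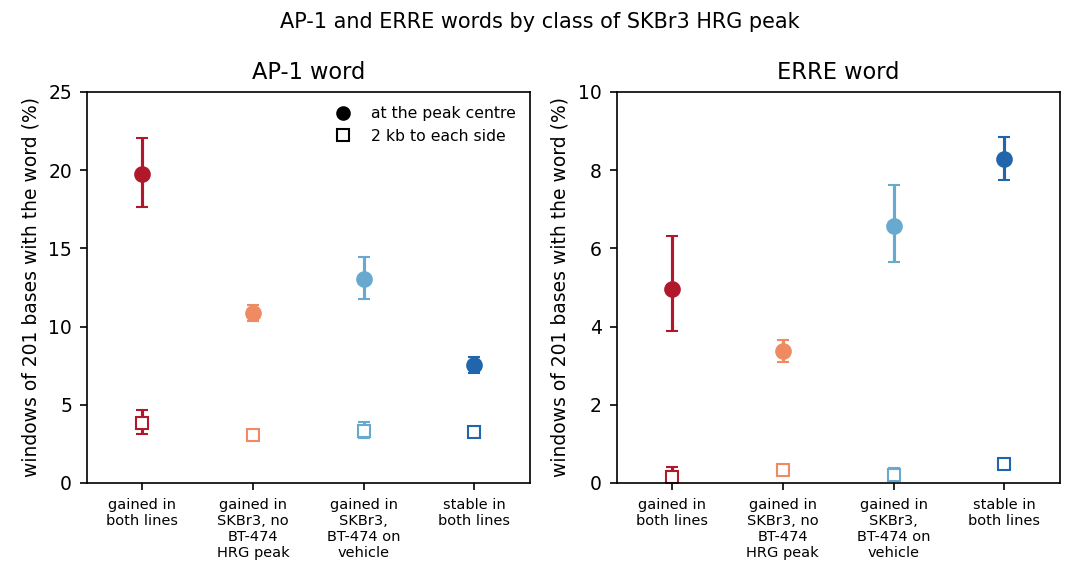
Percent of windows of 201 bases (y axes) that hold the AP-1 word (left) and the ERRE word (right), by class of SKBr3 HRG peak (x axes). Circles are windows at the peak centre, open squares are windows 2 kb to each side, and bars are 95% Wilson intervals. Of the 4 classes drawn, sites gained in both lines have the highest AP-1 share (19.8%) and stable peaks the highest ERRE share (8.29%).

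**Figure D5:**
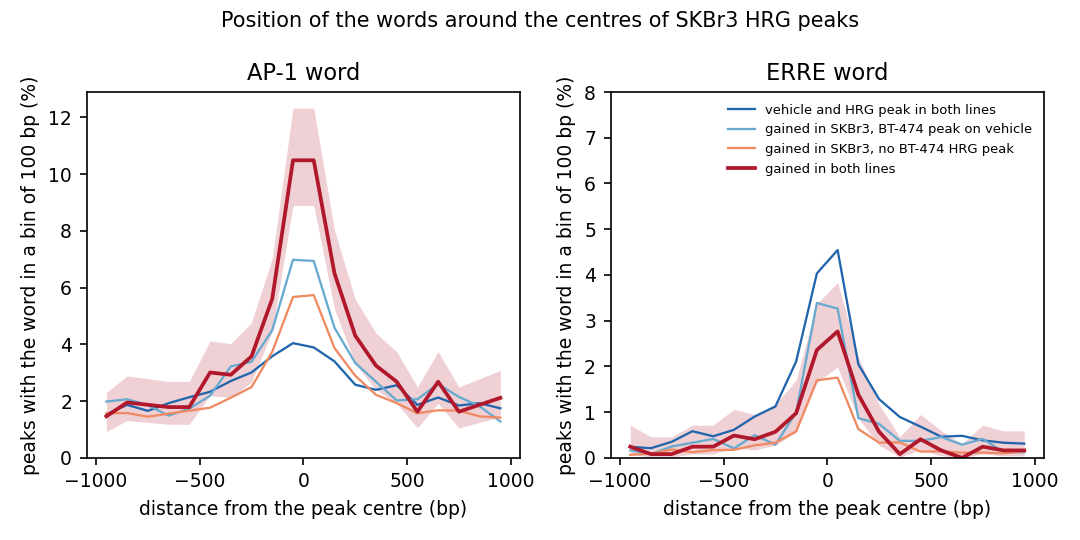
Percent of sites with the AP-1 word or the ERRE in each bin of 100 bp (y axes) by distance from the centre of the SKBr3 HRG peak (x axes, bp), for shared HRG-gained sites and the comparison classes. At the shared sites the AP-1 word reaches 10.5% in the bins beside the centre, and the ERRE 2.36 and 2.76%.

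Other words were also counted. The forkhead word TGTTTAC lay at 5.37% of them (4.24–6.77), against 3.45% of the SKBr3 HRG list, 2.32% of peaks gained in SKBr3 alone, 5.70% of those present on vehicle in BT-474 and 2.40% of the flanks. The GATA word AGATAA was at 10.4% of the shared sites, 3.496 points (1.86–5.37) above the 6.91% of peaks gained in SKBr3 alone but below the 12.7% of peaks present on vehicle in BT-474 and the 12.5% of the flanks. GC-rich words were less frequent at shared sites than at peaks gained in SKBr3 alone, at 7.56 and 13.2% for the SP/KLF word GGGCGG and at 7.32 and 11.2% for the TFAP2 word GCCNNNGGC. The TEAD word GGAATG stood at 14.6 and 14.3%. The cAMP response element TGACGTCA lay at none of the 1230 sites (0.301% of the list), and the full oestrogen response element at 1.

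The share of shared sites with the AP-1 word differed between sites bound and not bound in other lists. Of the 684 sites with an SKBr3 EGF peak, 179 held the word (26.2%), and of the 546 without, 64 (11.7%), a difference of 14.5 points (10.1–18.7). For LRSKBr3 the order was opposite, with 57 of 534 bound sites (10.7%) and 186 of 696 others (26.7%), a difference of −16.1 points (−20.2 to −11.8). The comparison classes were ordered likewise, with 7.14 against 13.4% for peaks gained in SKBr3 alone, 9.05 against 18.8% for those present on vehicle in BT-474 and 6.99 against 17.0% for stable peaks. Shared sites bound in LRSKBr3 cells had a higher mean GC content than the others (49.4 against 44.9%). Of the 534, 91 lay at promoters, where 1.79% of shared sites held the word. The part of GC content and promoters was not tested. For BT-474 EGF the word lay at 22 of 147 bound sites (14.97%, 10.1–21.6) and 221 of 1083 others (20.4%, 18.1–22.9), with intervals that overlapped. At the 405 sites with an EGF peak and no LRSKBr3 peak the share was 34.3%, and at the 255 sites with the reverse pattern 6.67%. In the commonest pattern, EGF in SKBr3 and no other list, 124 of 344 sites held the word (36.1%), and among the 178 sites bound in both pSKBr3 and LRSKBr3 cells 5.06%. Among the 356 sites bound in LRSKBr3 but not in pSKBr3 cells the share was 13.5%. With rising BT-474 HRG score the share went from 17.1 through 18.2 and 25.2 to 29.6% over the quartiles of that list, with 16 of 54 sites (19.1–42.8) in the highest and 84 of 490 (14.1–20.7) in the lowest, whose intervals overlapped, and the share with an SKBr3 EGF peak from 45.5 to 81.5%. These splits were chosen after the values were seen.

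Part of the AP-1 difference between the shared sites and the peaks gained in SKBr3 alone went with the EGF call, as the latter also held the word more often where EGF bound. Within EGF-bound peaks it was 26.2 against 22.8%, a difference of 3.35 points whose interval included 0 (−0.131 to 7.05), and within peaks without EGF 11.7 against 7.64%, a difference of 4.08 points (1.595–7.08). Split by LRSKBr3, the difference was 3.53 points (1.09–6.50) among bound peaks and 13.3 points (10.1–16.8) among the others. Within quartiles of the SKBr3 HRG score, the shared sites had the higher share in each, at 17.2, 20.7, 21.4 and 20% against 9.75, 10.3, 12.8 and 14.8%, although in the highest quartile the interval included 0 (−0.816 to 12.4). By GC content, the shared sites exceeded the peaks gained in SKBr3 alone by 13.0 points (9.61–16.7) in the lowest tertile, 4.42 points (0.862–8.49) in the middle tertile and 2.99 points (−0.638 to 8.003) in the highest. Against peaks present on vehicle in BT-474 the interval also included 0 in the highest score quartile (−1.66 to 12.9), in the highest GC tertile (−2.49 to 7.59) and among LRSKBr3-bound peaks (−1.22 to 4.84). At promoters the difference turned. It was −4.37 points (−8.20 to 0.693) from that class and −2.97 points (−4.55 to 1.58) from peaks gained in SKBr3 alone.

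Shared sites lay at promoters less often than peaks gained in SKBr3 alone. At 112 sites (9.11%, 7.62–10.8) the centre was within 1 kb of a transcription start of a protein-coding gene, against 16.5% of the SKBr3 HRG list and 16.7% (16.1–17.3) of peaks gained in SKBr3 alone. Peaks present on vehicle in BT-474 had 10.7%, and the difference of −1.63 points included 0 (−3.60 to 0.462). Within tertiles of GC content the promoter shares of shared sites and of peaks gained in SKBr3 alone were 2.56 and 2.43% in the lowest, 4.37 and 8.38% in the middle and 37.3 and 34.04% in the highest, so the lower share was seen in the middle tertile. With a score of at least 100 in both HRG lists the promoter share of the shared sites was 5.43%. Introns held 47.1% of the sites, exons 5.12% and intergenic sequence 47.8%, and 234 sites (19.0%) were over 100 kb from any start. Peaks were 1250 bp wide at the median. Mean GC content of the centre windows was 46.8% (SD 9.22 over the 1230 sites), below the 51.8% of peaks gained in SKBr3 alone and near the 48.2% of stable peaks. Few sites were neighbours, with 112 (9.11%) within 20 kb of another and 262 (21.3%) within 100 kb. Chromosome 19, which is rich in genes and in GC, held 3.33% of the shared sites and 7.25% of the peaks gained in SKBr3 alone.

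The promoter sites differed from the rest in the way that promoter peaks of the other gained classes did. Of the 112, 91 (81.3%) had an LRSKBr3 peak, 65 (58.0%) a pSKBr3 peak and 35 (31.3%) an SKBr3 EGF peak, and 2 (1.79%) held the AP-1 word. Of the 1118 other sites, 39.6% had an LRSKBr3 peak, 12.7% a pSKBr3 peak and 58.1% an SKBr3 EGF peak, and 241 (21.6%) held the AP-1 word. Promoter peaks gained in SKBr3 alone had an LRSKBr3 peak at 69.2%, a pSKBr3 peak at 45.9%, an SKBr3 EGF peak at 14.2% and the AP-1 word at 4.76%. For those present on vehicle in BT-474 the values were 79.6, 54.6, 39.6 and 6.15% in the same order. At promoters the SKBr3 EGF share of shared sites thus differed from that of this last class by −8.37 points (−18.3 to 2.39). Most of the 112 promoter sites thus had a peak in LRSKBr3 cells, and 58.0% in pSKBr3 cells, although none had an SKBr3 vehicle peak. The vehicle cells were starved of serum, while no starvation is stated for pSKBr3 and LRSKBr3 cells. The part of serum was not tested. The first promoter site by rank was that of STARD4, a sterol transport protein (chr5:110847615-110849265), with scores of 289.99 and 251.19 with HRG, 198.11 with EGF in SKBr3 and 140.02 in LRSKBr3 cells. The promoter of INHBB, a subunit of activin and inhibin, had 201.36 and 151.07 and an LRSKBr3 score of 546.05, and that of FLVCR1, a membrane transporter, had a pSKBr3 score of 238.06. Away from promoters, the AP-1 share of the shared sites exceeded that of peaks gained in SKBr3 alone by 9.47 points (7.09–12.0).

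A shared site lay within 20 kb of a start of 691 of 19794 protein-coding genes (3.49%). Of the 598 listed genes of 17 pathways and families that were in the annotation, 35 had one (5.85%, 4.24–8.03). Stable peaks lay within 20 kb of 26.0% of all genes and of a larger share of the genes in most of the lists. The higher share of listed genes was thus not particular to shared sites. A site near a gene does not show that it acts on that gene.

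Ligands and receptors of the ERBB family had no shared site (0 of 15 genes, upper Wilson bound 20.4%). Among adaptors and RAS-MAPK kinases 2 of 31 genes had one. A site in an intron of GAB2, an adaptor that recruits PI3K (chr11:78065253-78066246), scored 203.77 in SKBr3 and 56.36 in BT-474 with HRG and 223.55 with EGF in SKBr3, and one in RPS6KA6, a ribosomal S6 kinase, 88.62, 63.01 and 119.9. Neither was bound in pSKBr3 or LRSKBr3 cells. In the PI3K, AKT and mTOR list 3 of 38 genes had a site, namely AKT2, RICTOR, the subunit that defines mTOR complex 2, and PHLPP2, a phosphatase of AKT. The AKT2 site (chr19:40725033-40726499) scored 191.2 and 64.97 with HRG and 92.18 with EGF in SKBr3, and it held the AP-1 word. Of feedback inhibitors of receptor tyrosine kinases 1 of 33 had sites, SPRED2, an inhibitor of RAS signalling, with 2.

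Of the AP-1 subunits themselves 1 of 20 had a shared site, JUND (chr19:18388968-18390798), with scores of 178.62 and 74.37 with HRG, 84.7 with EGF in SKBr3 and 624.38 in LRSKBr3 cells. Of 35 other immediate early genes 3 had one, the transcriptional regulators IER2 and ID1 and the survival factor MCL1. The ID1 site (chr20:30194690-30197011) scored 321.5 and 158.49 with HRG, 539.52 in pSKBr3 and 397.36 in LRSKBr3, and the IER2 site 630.97 and 55.52 with HRG, 62.57 and 300.63. None of these 3 had an EGF peak in either line, and each had an LRSKBr3 peak.

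Integrins and laminins, the adhesion receptors for matrix and their ligands, had the largest share of the 17 lists, 6 of 38 genes (15.8%, 7.44–30.4), with ITGA3, ITGAV, ITGB1, ITGB2, ITGB5 and LAMA3. The interval is wide, and the 6 genes rested on 10 sites, of which 2 near ITGA3 met a single BT-474 peak. That peak scored 51.05, near the calling limit. Peaks gained in SKBr3 alone lay within 20 kb of 47.4% of the 38 genes and stable peaks of 39.5%. Over all genes these shares were 39.1% and 26.0%. Around ITGAV, the αv chain, 3 sites lay near its start. The one at chr2:187437187-187438096 scored 348.61 in SKBr3, 52.32 in BT-474 and 158.25 with EGF in SKBr3, and the one at chr2:187454091-187455315, whose centre was 34 bp from the start, had 209.89 and 108.68, 134.35 in pSKBr3 and 126.86 in LRSKBr3. The ITGB1 site (chr10:33298663-33300158), next to the gene of the β1 chain, scored 192.21, 93.9 and 81.69, the last with EGF in SKBr3. An AP-1 word lay at the centre of a site of ITGA3, ITGAV and LAMA3. Among sites near listed genes the word also lay at those of AKT2 and UQCRC1 and at a second ITGAV site. One window of 29 bases around the word is printed for each of 4 genes, with capitals for the word on the plus strand of GRCh37.
ITGA3, chr17:48128533-48128561: ttggggggtggTGACTCAgcccTGACTCA
ITGAV, chr2:187437586-187437614: ccaccctcttcTGAGTCAcctcttcaagt
LAMA3, chr18:21452904-21452932: ccttcctcaccTGAGTCAggcaggcccgg
AKT2, chr19:40725678-40725706: tcgaggatgaaTGAGTCAactgcccttca

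Of small GTPases of the cytoskeleton and regulators of actin 4 of 46 genes had a shared site. The RHOD site (chr11:66820920-66823357), near the gene of a small GTPase of endosomes, scored 415.64 and 71.64 with HRG and 149.62 with EGF in SKBr3, and the TLN1 site, in the gene of the integrin activator talin, 269.87 and 61.42, with 270.96 in pSKBr3 and 442.3 in LRSKBr3. ARHGAP26 and ARHGEF12, regulators of small GTPases, were the others. In the TGFβ and BMP list 3 of 37 genes had one. An intronic site in BMP6 (chr6:7730785-7732144) scored 648.14 and 153.15 with HRG and 935.26 with EGF in SKBr3, and SMAD3 and INHBB were the other genes. In the luminal breast list 3 of 26 had a site, the transcription factors GRHL1 and TBX3 and the keratin KRT8. The pair of sites at KRT8 met 1 BT-474 peak, which scored 51.47, near the calling limit. One of the pair scored 1817.72 in LRSKBr3 cells. Of nuclear receptors and ERRα coregulators 3 of 37 had one, among them the coactivator gene PPARGC1B and HNF4A. The HNF4A site scored 50.75 in SKBr3 with HRG, also near the limit.

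Among genes of energy metabolism, the known targets of ERRα, none of 26 of the TCA cycle (upper Wilson bound 12.9%) and 1 of 77 of oxidative phosphorylation (1.30%, 0.230–6.996) had a shared site, and both intervals held the 3.49% of all genes. Stable peaks, a larger class, lay within 20 kb of 84.6% and 77.9% of the genes of these lists and of 26.0% of all genes. The site near UQCRC1, a core subunit of complex III (chr3:48653208-48654277), scored 355.46 and 126.47 with HRG and 154.3 in LRSKBr3 cells, and it held the AP-1 word. One gene each had a site in fatty acid oxidation (1 of 33), glutathione and antioxidant defence (GSTP1, 1 of 45) and glutamine metabolism (ASNS, the asparagine synthetase, 1 of 23). In glycolysis and glucose transport 2 of 39 had one, the aldolase gene ALDOA and SLC2A3, which encodes the glucose transporter GLUT3. The ALDOA site scored 51.56 in SKBr3 with HRG, near the calling limit. SLC2A3 had 3 sites within 20 kb of one of its starts, of which the first, in an intron of FOXJ2 (chr12:8190222-8191897), scored 448.92 and 374.41 with HRG and 223.24 and 94.75 with EGF in SKBr3 and BT-474. The other genes with 3 sites were FAM174B, ITGAV, LIMA1, an actin-bundling protein gene, and USP48, a deubiquitinase gene, and this count was added after the values were seen.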

How the data were processed

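ERRα ChIP-seq reads were aligned to hg19 by the authors, with BWA 0.5.9 and SAMtools 0.1.18 named in the submitters' processing notes, and peaks were called with MACS against input. The authors deposited 8 peak lists in place of read counts, each with the position of a peak and its score (−10 log10 P). The P behind each deposited score is at most 1e-05. Since neither tag counts nor peak summits were used here, the depth of each library is unknown, and the middle of a peak stood for its summit. Starts were read as 0-based and are printed 1-based.

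From these files, overlaps of at least 1 bp, score percentiles within a list, and distances to protein-coding transcription starts (GRCh37 annotation, 19794 genes) were computed with Python 3.11.15, numpy 2.4.6, pandas 2.3.3, scipy 1.17.1 and pysam 0.24.0, and figures were drawn with matplotlib 3.10.9. Where several peaks of a list overlapped a site, the highest score was taken. Words were counted in 201 bases around each centre and in windows 2 kb to each side. Shares carry 95% Wilson intervals and differences Newcombe intervals, which treat sites as independent although neighbours share libraries. The procedures were tested on simulated peaks.

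The sites, the 17 gene lists and the words were chosen with earlier results of these data known. Sites named in the text were the 10 with the highest rank by the lower of their percentiles in the 2 HRG lists, up to 4 per gene list, those with both words, the first 3 in all and in none of the 4 other lists, the promoter of TFF1, and those nearest to the limits of the rule. Promoter sites were named after their values were seen. A few named genes and windows are not reported here. Alternatives covered the overlap, score limits, list size, vehicle distance, window, word and gene distance.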

Additional observations from a re-analysis of the deposited data

How the results depend on the processing

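Of 61 alternative values computed, 25 stayed within the interval of the reported share or within 1.5 times the reported count, and 36 moved. In the order number of sites, AP-1, SKBr3 EGF, BT-474 EGF, pSKBr3, promoter, mean GC content and genes, a score of at least 100 in both HRG lists gave 313 sites and 24.9, 73.2, 16.9, 14.7 and 5.43%, 45.9% GC and 169 genes. With the same limit in the vehicle lists there were 688 sites. Lists cut to equal size (32183 peaks) gave 681 sites, 63.7% with SKBr3 EGF, 14.5% with BT-474 EGF and 46.3% GC. An overlap of 50% of both peaks gave 59.8% with SKBr3 EGF, 40.1% with LRSKBr3, 13.4% with pSKBr3, 5.65% at promoters and 46.2% GC. For the 4 other lists in the order SKBr3 EGF, BT-474 EGF, LRSKBr3 and pSKBr3, centres within 250 bp gave 45.4, 6.83, 28.0 and 10.2%, and a score of at least 100 in that list 36.99, 3.01, 28.9 and 7.89%. Promoters within 5 kb took in 20% of sites, and a distance of 10 kb 426 genes.

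The AP-1 share was 10.1% within 50 bp, 50.1% over the whole peak and 17.3% around the centre of the BT-474 peak, and the ERRE share 2.85% within 50 bp, 11.1% over the whole peak and 23.1% with the word AAGGTCA. Wider windows hold more words by construction, and for the other changes the cause was not tested. The AP-1 share was 23.4% in the lowest and 11.005% in the highest tertile of GC content, a split chosen after the data were seen, as was that by promoter. Under the score limit of the HRG lists, the 50% overlap, equal lists and the distance from vehicle peaks, the shared sites kept the highest AP-1 share of the 4 classes, at 20.2 to 24.9%, against 11.4 to 14.3% for the next.

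No paired analysis was possible because each peak list used here stood for pooled libraries or for a single one, so leaving out a replicate was not possible from these lists either, and reads of single libraries were not analysed here. Absence from a list means only that no peak reached its limit, and 20.3% of the shared sites scored under 60 in BT-474. Repeats were not marked in the genome used, so copies of a word within repeats were not counted apart.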

Other observations

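Some elements at the shared HRG-gained sites belong to no comparison above. The CCAAT word of NF-Y lay at 23.3% of the sites and 23.6% of their flanks, the RUNX word TGTGGTT at 3.58 and 3.78%, and the E-box CACGTG at 2.44 and 2.36%. The ETS word CCGGAAG, which belongs to promoters of housekeeping genes, lay at 1.54% of the sites (0.991–2.40) and 2.51% of the SKBr3 HRG list, and the grainyhead-like word AACCGG at 1.54 and 2.63%.

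After STARD4, MXRA7, INHBB and FLVCR1, the next promoter sites by rank were those of MAN1C1, ZSWIM4, NPAS1 and DDX6, the gene of an RNA helicase of processing bodies. The promoter sites of MAN1C1, ZSWIM4 and NPAS1 had no peak in any of the 4 lists outside the rule, and that of DDX6 had pSKBr3 and LRSKBr3 peaks with scores of 149.71 and 158.75.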
